A study of Mus musculus with 13 samples.

Results

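The thioredoxin system of mouse islet cells was described through 7 genes, Txnrd1, Txnrd2, Txnrd3, Txn1, Txn2, Txnip and Txnl1. They were chosen by gene symbol from the 55421 genes of a deposited RNA-seq count table. All 7 were found once in the table, and all 7 passed the filter on low counts in each of the comparisons below. The table holds 13 libraries of islet cells sorted by fluorescence into GFP-positive beta cells and Tom-positive non-beta cells. Control mice were Txnrd1.+/+ and the mice labelled knockout were Txnrd1.fl/fl. Both kinds of mice also carried Ins1.Cre/+, which places the recombinase under an insulin gene, and the membrane reporter Rosa26.mTmG/mTmG. All were C57BL/6 animals of 10 to 20 weeks, and their islets had spent a night in culture at 5.5 mM glucose before sorting. There were 4 control beta, 3 control non-beta, 3 labelled knockout beta and 3 labelled knockout non-beta libraries. No labels say whether the libraries of a group came from separate mice, so p-values measure only the spread between these samples, which may be technical.

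Thioredoxins are small proteins that reduce disulfide bonds in other proteins through a pair of cysteines. Thioredoxin reductases return them to the reduced form with electrons from NADPH, by means of a selenocysteine near the end of the enzyme. Txnip binds reduced thioredoxin and inhibits it, and in beta cells it is known as one of the genes most strongly induced by glucose, through the factors ChREBP (Mlxipl) and MondoA (Mlxip) with their partner Mlx.

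The sequences that define these roles were read from the GENCODE vM21 transcripts and from RefSeq promoters, both of the GRCm38 mouse genome. The 3 reductase genes end their coding sequences in the same way, with a TGA codon that is read as selenocysteine just before the true stop codon. It is shown here in capitals because it separates the reductases from other members of the list, and each line runs 5′ to 3′ to the stop codon.
Txnrd1 selenocysteine codon (chr10:82896037-82896039, plus strand): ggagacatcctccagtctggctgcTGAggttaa
Txnrd2 selenocysteine codon (chr16:18477772-18477774, plus strand): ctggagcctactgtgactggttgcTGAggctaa
Txnrd3 selenocysteine codon (chr6:89674789-89674791, plus strand): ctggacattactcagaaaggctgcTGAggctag
In all 3 genes the annotated transcripts with this codon shared a single version of the sequence.

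The thioredoxins are defined by an active site with a pair of cysteines that flank a glycine and a proline. The capitals mark the 15 bases that encode tryptophan and these 4 residues, found once in the coding sequence of each gene.
Txn1 active site (chromosome 4, minus strand): gctacgTGGTGTGGACCTTGCaaaatg
Txn2 active site (chromosome 15, minus strand): gcacagTGGTGTGGCCCCTGCaagatc

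Txnip carries in its promoter the element through which glucose is known to act, a pair of sites CACGNG set 5 bases apart. A search on both strands of 32851 RefSeq promoter windows, each from 250 bases before to 50 bases after a start site, found the pair in 16 windows, or 0.0487%. Among the 8 windows of the 6 genes of the list that were in the promoter table, the Txnip window held it and no other did. Capitals mark the pair.
Txnip promoter, bases −105 to −46 from the start (chr3:96557852-96557911, plus strand): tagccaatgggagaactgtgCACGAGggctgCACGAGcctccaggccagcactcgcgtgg
A match is a description of these letters, and binding was not measured.

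Library totals ran from 28.7 to 36.8 M counts, and the Spearman correlation between libraries of a group lay between 0.926 and 0.993. Values below are CPM, counts scaled to a library size of 1 M by TMM,, or RPKM, which is CPM per kilobase of exon, where genes are compared with each other. The sort was visible in the hormones and in marker lists. A list of 8 beta cell markers summed to 157100 to 306300 CPM in the beta libraries and to 6733 to 30940 CPM in the non-beta libraries. The non-beta libraries were a mixture, rich in alpha cell transcripts. They also held pancreatic polypeptide at 32430 to 49850 CPM and delta cell markers at 7083 to 15120 CPM. Acinar markers summed to 1135 to 6131 CPM and endothelial markers to 866.8 to 1517 CPM in them. Labelled knockout beta replicate 3 stood apart from its group. It held 3573 CPM of glucagon (Gcg) against 634.1 and 509.9 CPM in the other labelled knockout libraries and 318.4 to 701.8 CPM in the controls, and its insulin transcript Ins2 was lowest of all beta libraries at 124200 CPM. The summed level of 6 alpha cell markers, all detected there, was 3678 CPM, and 742.4 and 605.2 CPM in replicates 1 and 2. Pancreatic polypeptide was also highest of the group in replicate 3, at 874 CPM against 332.5 and 276.9 CPM. The part of these transcripts in any result below was not tested, and calls for the named genes that change without this library are given beside their values.

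The cytosolic reductase gene Txnrd1 rose in beta cells under the knockout label, and was the only gene of the list whose call there held in all 14 alternatives. Txnrd1 spans chr10:82833951-82897712 on the plus strand. In control beta cells it stood at 276.7, 273.4, 293.1 and 323.8 CPM in replicates 1, 2, 3 and 4. In the labelled knockout beta cells it stood at 605.4, 599.1 and 540.0 CPM. Every labelled knockout library lay above every control library, and the difference was 2.00-fold (log2 fold change 1.00, standard error 0.08, adjusted p = 2.22e-05). With each library left out in turn the log2 fold change stayed between 0.97 and 1.05.

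If a loss of transcript is taken as the mark of a knockout, the direction of Txnrd1 goes against the label. A count over a gene sums reads from all of its exons, and the exons that the fl/fl allele removes are not given in the sources used here, so the total does not check the genotype. The groups are therefore named by their label. The deposited table does not resolve exons, and how many of these reads came from a recombined transcript was not measured.

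In non-beta cells Txnrd1 did not pass the test. Its levels were 257.0, 251.0 and 267.6 CPM in control replicates 2, 3 and 4 and 240.4, 212.0 and 244.2 CPM in the labelled knockout replicates. All 3 labelled knockout values were below the controls, with a log2 fold change of −0.14 (95% interval −0.41 to 0.13, adjusted p = 0.999). The difference between the fractions was tested directly over all 13 libraries. The log2 difference of the knockout label in beta cells exceeded that in non-beta cells by 1.15 (standard error 0.13, adjusted p = 0.00209), and Txnrd1 was the 1 gene of the list called, where 0.928% of all genes were.

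Between the control fractions Txnrd1 was 291.7 ± 23 CPM (SD, n = 4) in control beta and 258.5 ± 8.39 CPM (SD, n = 3) in control non-beta cells, and the log2 difference of 0.17 did not pass (adjusted p = 0.132), although the ranges did not overlap. Under the knockout label the beta libraries stood 2.43-fold above the non-beta libraries (log2 1.28, standard error 0.12, adjusted p = 7.6e-05).

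**Figure D1:**
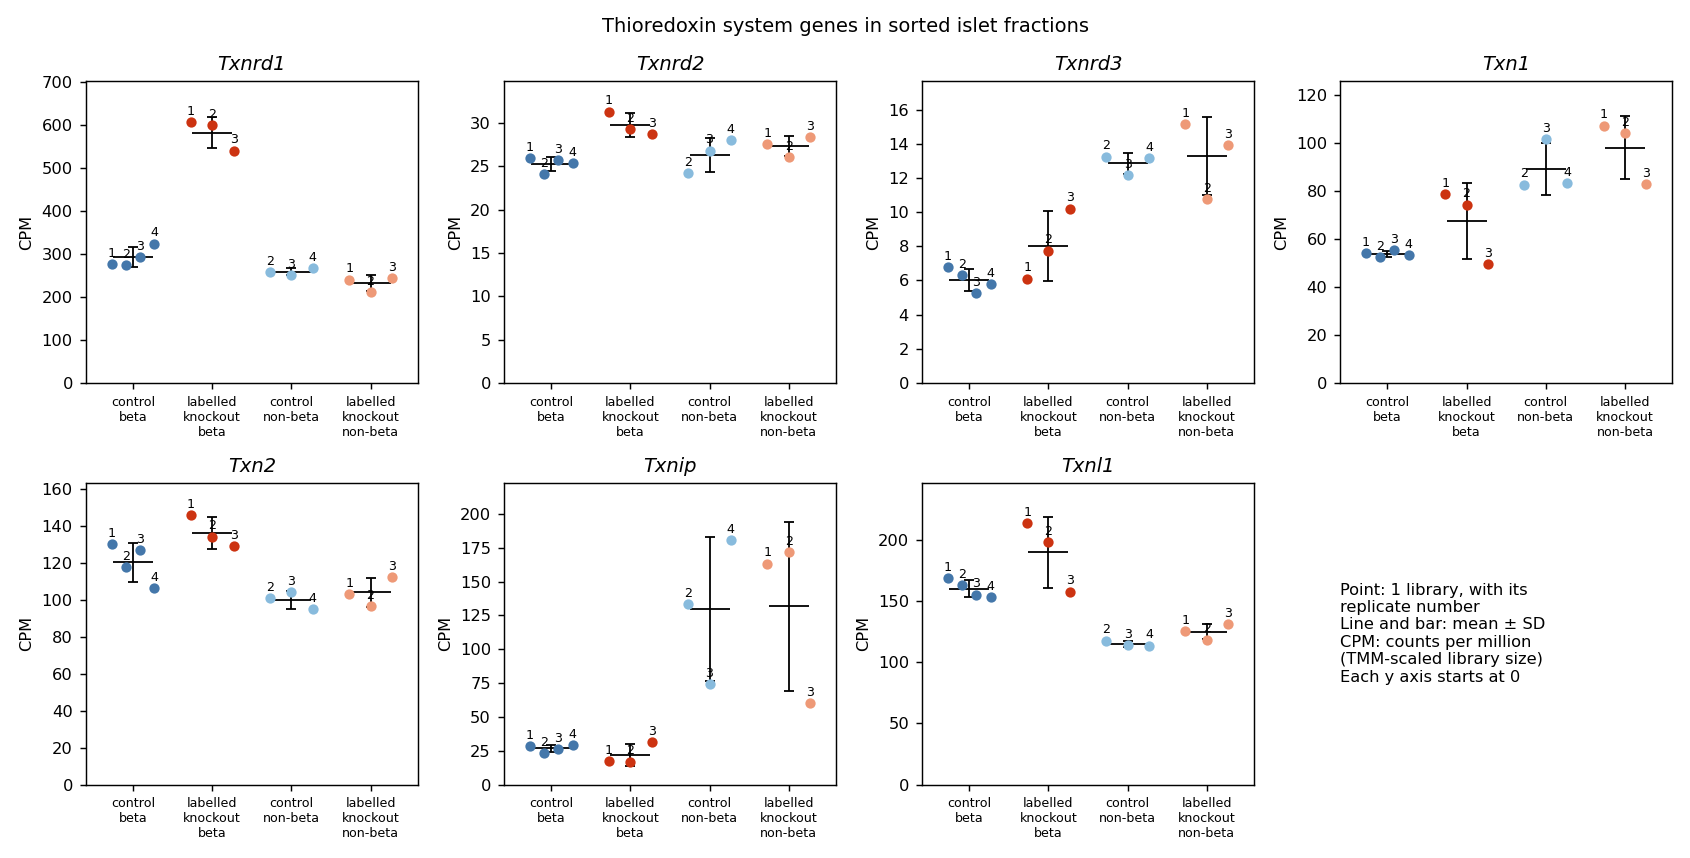
Level of each of the 7 genes in CPM (y axes, each from 0) in the 4 groups (x axis), with 1 point per library numbered by replicate and the group mean ± SD. The 3 labelled knockout beta libraries of Txnrd1 lie at 540.0 to 605.4 CPM, above all other libraries, and replicate 3 of the labelled knockout beta group departs from replicates 1 and 2 for Txnip, Txn1, Txnrd3 and Txnl1.

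Txnrd2 encodes the mitochondrial reductase and spans chr16:18426384-18479073 on the plus strand. In beta cells it was 25.9, 24.1, 25.7 and 25.4 CPM in control replicates 1, 2, 3 and 4 and 31.3, 29.3 and 28.7 CPM under the knockout label. The ranges did not overlap, with a rise of 0.24 in log2 units (standard error 0.07, adjusted p = 0.0446). That call sat at the threshold and was lost in 11 of 14 alternatives, among them the fit with the replicate number as a block (log2 fold change 0.24, adjusted p = 0.0751) and the removal of any single library (adjusted p between 0.0504 and 0.149). Txnrd2 was 26.3 ± 1.95 CPM in control non-beta and 27.3 ± 1.14 CPM in labelled knockout non-beta cells (SD, n = 3 each), and the difference between fractions passed in neither genotype (adjusted p = 0.583 in controls and 0.561 under the knockout label).

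Txnrd3, the thioredoxin glutathione reductase known from testis, was the lowest of the list. It spans chr6:89643988-89675529 on the plus strand. Control beta cells held 6.79, 6.32, 5.27 and 5.77 CPM, and control non-beta cells held 13.2, 12.2 and 13.1 CPM in replicates 2, 3 and 4. The fractions did not overlap, and beta cells were lower by a log2 value of −1.09 (standard error 0.13, adjusted p = 8.14e-05). The same order held under the knockout label, with 6.10, 7.75 and 10.2 CPM in beta and 15.2, 10.7 and 13.9 CPM in non-beta cells (log2 −0.75, adjusted p = 0.0347), a call lost when any of 3 libraries was left out. In beta cells the label gave a log2 difference of 0.42 that did not pass (adjusted p = 0.115). It was 0.19 (adjusted p = 0.422) without labelled knockout replicate 3 and 0.58 (adjusted p = 0.0462) without labelled knockout replicate 1.

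The 3 reductases were added per kilobase to show how far Txnrd1 makes up their total. In control beta cells the sum was 49.0 ± 3.17 RPKM (SD, n = 4), and Txnrd1 made up 82.5 to 85.4% of it. In labelled knockout beta cells the sum was 91.7 ± 4.64 RPKM (SD, n = 3) and the share of Txnrd1 was 88.3 to 90.2%. The non-beta sums were 47.0 ± 1.56 RPKM in controls and 43.7 ± 3.49 RPKM under the knockout label, with Txnrd1 shares of 77.3 to 78.1% and 74.5 to 75.5%. Txnrd3 supplied 9.36 to 11.8% of the sum in non-beta and 2.27 to 5.06% in beta cells. Txnrd2 supplied 10.8 to 12.4% in control beta and 11.8 to 13.3% in control non-beta cells, and 7.09 to 7.54% and 13.75 to 14.95% in the labelled knockout fractions. These sums and shares describe transcripts and depend on the exon length used for each gene, with no test of their own.

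**Figure D2:**
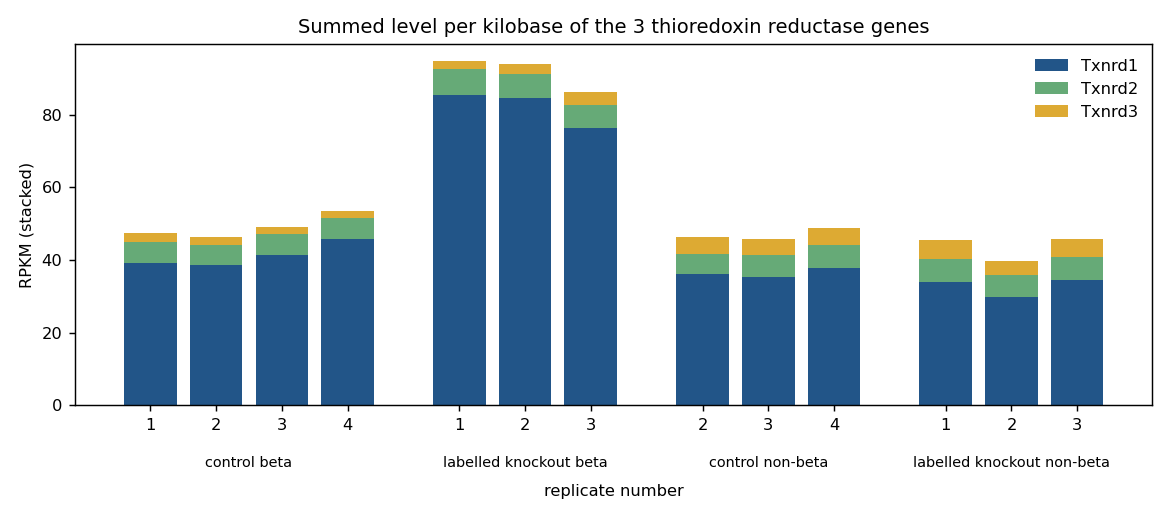
Stacked RPKM of Txnrd1, Txnrd2 and Txnrd3 (y axis, from 0) in each of the 13 libraries (x axis, replicate number within group). The labelled knockout beta bars reach 86.3 to 94.7 RPKM, those of all other libraries 39.6 to 53.5 RPKM, and the segment for Txnrd3 is taller in the non-beta libraries.

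Txn1, the cytosolic thioredoxin and the substrate of the Txnrd1 enzyme, was lower in beta than in non-beta cells. The gene spans chr4:57943373-57956411 on the minus strand, and the pseudogene Txn-ps1 held 0 to 3 counts in any library. Control beta cells held 54.2, 52.4, 55.4 and 53.3 CPM in replicates 1, 2, 3 and 4, and control non-beta cells 82.7, 101.6 and 83.4 CPM in replicates 2, 3 and 4. The ranges were well apart, and the log2 difference was −0.74 (standard error 0.09, adjusted p = 9.88e-05). Under the knockout label it was −0.58 (standard error 0.17, adjusted p = 0.0226), which did not pass without labelled knockout beta replicate 3 (−0.41, adjusted p = 0.0519) or without labelled knockout non-beta replicate 1 or 2 (adjusted p = 0.0952 and 0.0628).

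Under the knockout label Txn1 in beta cells depended on replicate 3. The labelled knockout beta libraries held 78.8, 74.4 and 49.6 CPM. Replicates 1 and 2 lay above all 4 controls and replicate 3 below them all, so that the log2 fold change of 0.33 did not pass (standard error 0.13, adjusted p = 0.0982). Without replicate 3 it was 0.50 (adjusted p = 0.00116). Txn1 also passed with all genes kept in the test (adjusted p = 0.0419), and the authors' deposited table gives it an FDR of 0.0483 at a log2 fold change of 0.33. The authors' deposited table has no call for Txnrd2 in beta cells (FDR 0.0641), nor for Txn2 between the control fractions (FDR 0.162) or the labelled knockout fractions (FDR 0.195). Non-beta cells under the knockout label held 107.4, 104.2 and 83.1 CPM, which overlapped the controls.

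Txn2, the mitochondrial thioredoxin, showed the opposite order of fractions. It spans chr15:77915047-77929006 on the minus strand. Control beta cells held 130.3, 117.6, 126.9 and 106.4 CPM in replicates 1 to 4, and control non-beta cells 101.1, 104.1 and 94.9 CPM in replicates 2 to 4. The beta libraries lay above the non-beta libraries by a log2 value of 0.26 (standard error 0.09, adjusted p = 0.0368), and 7 of 15 alternatives lost this call, among them RLE scaling (adjusted p = 0.0519). With the knockout label the values were 146.0, 134.3 and 129.0 CPM in beta and 103.3, 96.8 and 112.2 CPM in non-beta cells, a log2 difference of 0.35 (standard error 0.11, adjusted p = 0.0298), which 6 of 14 alternatives lost. In beta cells the label gave 0.18 (standard error 0.08), and the ranges overlapped (adjusted p = 0.143).

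The level per kilobase put Txn1 first in control beta cells, at 51.2 ± 1.20 RPKM (SD, n = 4), above Txnrd1 at 41.2 ± 3.25 RPKM. The length used counts all annotated exons of a gene together, 1051 bases for Txn1 with 1 transcript and 7086 for Txnrd1 with 8. The order of the genes and their ratios depend on this length. In CPM, control beta cells held 291.7 of Txnrd1, 160.1 of Txnl1, 120.3 of Txn2 and 53.8 of Txn1. In each control beta library Txnrd1 had 0.757 to 0.901 times the RPKM of Txn1. In the labelled knockout beta libraries Txnrd1 came first, at 82.1 ± 5.09 RPKM against 64.3 ± 15 RPKM for Txn1 (SD, n = 3), and the ratio was 1.14 to 1.62. In the non-beta libraries the ratio was 0.302 to 0.476. For the mitochondrial pair the ratio of Txnrd2 to Txn2 stayed between 0.190 and 0.282 in all 13 libraries. Below the leading pair the control beta order was Txn2 (28.6 RPKM), Txnl1 (24.8), Txnip (8.58), Txnrd2 (5.74) and Txnrd3 (2.13), and of all neighbours in that order only Txn2 and Txnl1 had overlapping ranges. In labelled knockout beta cells Txnip (7.05 RPKM) and Txnrd2 (6.76 RPKM) overlapped as well.

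Txnip, the inhibitor of thioredoxin, differed most between the fractions. The gene spans chr3:96557957-96561883 on the plus strand, and 19.4% of its exon bases are shared with the antisense gene Gm15441, and since the strand setting of the counting is not given in the sources used here, reads of the pair may not be told apart. Control beta cells held 28.4, 23.4, 26.3 and 29.1 CPM in replicates 1 to 4, while control non-beta cells held 133.5, 74.5 and 180.8 CPM in replicates 2 to 4. Every non-beta library was higher, and the beta level was lower by a log2 value of −2.28 (standard error 0.24, adjusted p = 3.85e-05), a 4.86-fold difference. Labelled knockout cells showed the same order, with 17.5, 17.1 and 31.4 CPM in beta and 163.2, 171.5 and 60.0 CPM in non-beta cells (log2 −2.60, standard error 0.42, adjusted p = 0.00141). Both calls held in every alternative run.

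Per kilobase Txnip thus ranked behind Txn1 in non-beta cells, at 41.5 ± 17 RPKM in controls and 42.1 ± 19.9 RPKM under the knockout label (SD, n = 3 each), with a range that overlapped Txnrd1. The ratio of Txnip to Txn1 was 0.150 to 0.184 in control beta and 0.247 to 0.729 in control non-beta libraries. Replicate 3 was the lowest Txnip library of both non-beta groups. In these replicates Ins2 was 6445 CPM in the control, against 2705 and 3090 CPM in its group, and 23680 CPM under the knockout label, against 1969 and 1558 CPM. Whether the beta cell transcripts in these libraries bear on their Txnip level was not tested.

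The knockout label gave no call for Txnip in beta cells when all libraries were used (log2 fold change −0.28, standard error 0.19, adjusted p = 0.339). Replicates 1 and 2 were below all 4 controls and replicate 3 above them all. Without replicate 3 Txnip fell by 0.64 on the log2 scale (adjusted p = 0.00254). Replicate 3 also held the most glucagon transcript of its group. Both Txnip and Txn1 were higher in non-beta than in beta cells, and in replicate 3 Txnip was the highest and Txn1 the lowest of the group. The part of non-beta transcripts in these levels was not tested. The removal of a library from the controls left the fold change between −0.34 and −0.24, none of them passing. In non-beta cells the log2 fold change was 0.03 with a 95% interval from −0.91 to 0.97, so changes of either sign within that range remain compatible with these libraries.

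**Figure D3:**
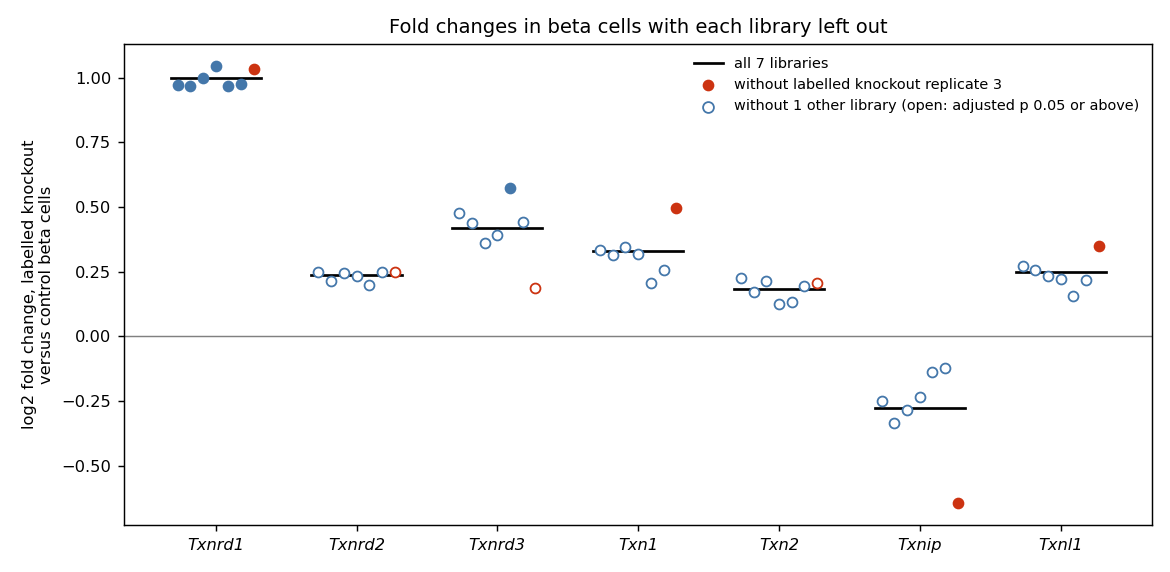
Log2 fold change of each gene, labelled knockout versus control beta cells (y axis), with all 7 libraries (black line) and with 1 library left out (points, filled where the adjusted p is below 0.05). Without labelled knockout replicate 3 (red) Txnip is at −0.64, Txn1 at 0.50 and Txnl1 at 0.35, all filled, while Txnrd1 stays close to 1.00 throughout.

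The antisense gene Gm15441 followed Txnip closely. It held 8.47 ± 1.53 CPM in control beta (SD, n = 4) and 41.1 ± 19.6 CPM in control non-beta cells (SD, n = 3), and its log2 difference was −2.28, the same to 2 decimals as that of Txnip (adjusted p = 0.000168). Under the knockout label in beta cells it had −0.28 (adjusted p = 0.419), and −0.65 (adjusted p = 0.0231) without labelled knockout replicate 3. Among 10116 genes with a mean of at least 10 CPM, Gm15441 had the log2 profile most like Txnip over the 13 libraries (Pearson r = 0.996), followed by Rhob (0.991) and Sept8 (0.982). These correlations describe libraries that share groups and fractions, and for Gm15441 also exon bases. Arrdc4, an alpha-arrestin relative of Txnip that glucose also induces, had the same order of fractions. It was 12.4, 13.1, 12.1 and 16.4 CPM in control beta and 58.3, 40.0 and 62.2 CPM in control non-beta cells (log2 −1.99, adjusted p = 7.33e-06), with replicate 3 again lowest. Under the knockout label its difference between fractions was −1.66 (adjusted p = 0.000401), and in beta cells its label difference was 0.24 (adjusted p = 0.268). The promoter window of Arrdc4 held no pair of CACGNG sites. Arrdc1 was higher in beta cells, by 0.50 on the log2 scale in controls (adjusted p = 0.00332) and 0.49 under the knockout label (adjusted p = 0.0321), and Arrdc2 passed in neither comparison (adjusted p = 0.421 and 0.134).

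The known activators of Txnip were ordered the other way. Mlxipl (ChREBP) was 218.7, 289.0, 222.9 and 292.4 CPM in control beta replicates 1 to 4 and 30.5, 21.5 and 31.3 CPM in control non-beta replicates 2 to 4. It was 9.17-fold higher in beta cells (log2 3.20, standard error 0.18, adjusted p = 5.19e-07). Mlxip (MondoA) and Mlx were higher in control beta cells as well, by 0.87 and 0.40 on the log2 scale (adjusted p = 0.00443 and 0.00198). Under the knockout label Mlxip fell in beta cells from 37.20 to 39.22 CPM in the controls to 30.04 to 32.88 CPM (log2 −0.26, standard error 0.07, adjusted p = 0.0271). That call was lost in 8 of 14 alternatives, among them the replicate block (adjusted p = 0.0561). Mlx had −0.17 (adjusted p = 0.128) and Mlxipl −0.20 (adjusted p = 0.367).

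**Figure D4:**
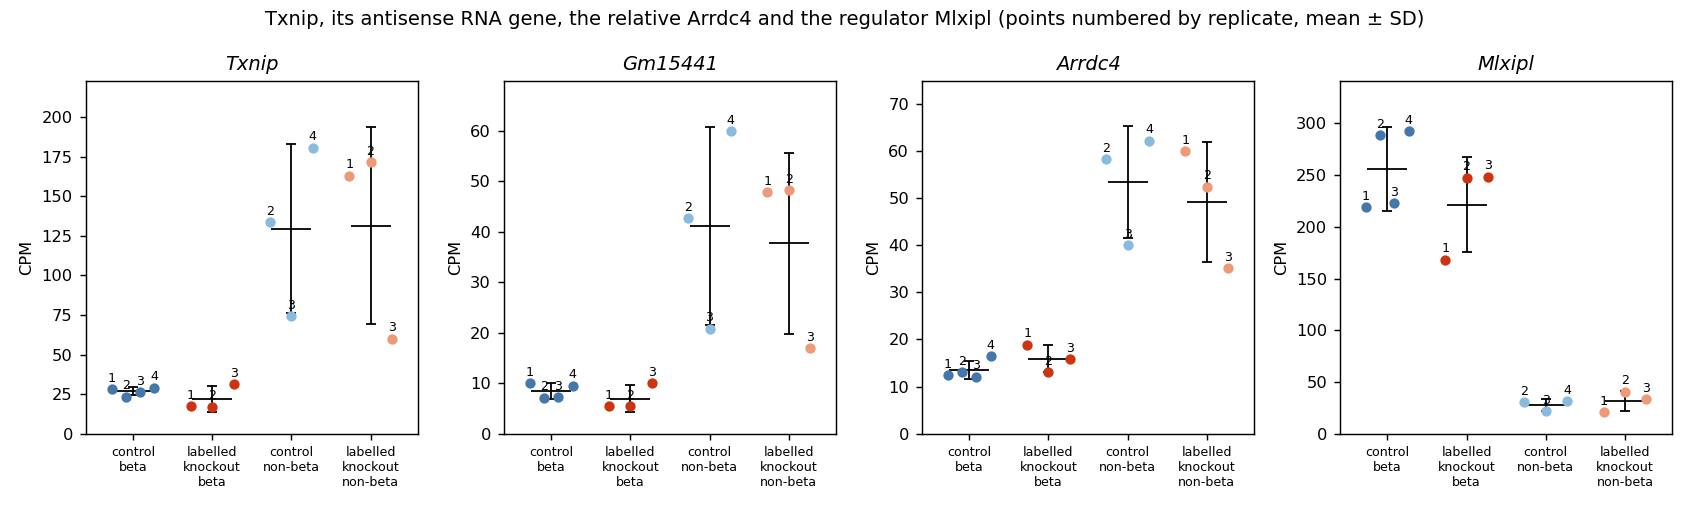
CPM (y axes, each from 0) of Txnip, its antisense gene Gm15441, the relative Arrdc4 and the activator gene Mlxipl in the 4 groups, with points numbered by replicate and the mean ± SD. Txnip, Gm15441 and Arrdc4 are higher in both non-beta groups with replicate 3 lowest in each, whereas Mlxipl is 218.7 to 292.4 CPM in control beta and 21.5 to 31.3 CPM in control non-beta cells.

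Txnl1, a thioredoxin-like protein of the cytosol that binds the proteasome, is encoded on chromosome 18, and 1.8% of its exon bases are shared with Wdr7. Control beta cells held 168.5, 163.2, 155.2 and 153.5 CPM in replicates 1 to 4 and control non-beta cells 117.7, 113.7 and 113.5 CPM in replicates 2 to 4. Beta cells were higher without overlap (log2 0.47, standard error 0.08, adjusted p = 0.000522). The same held under the knockout label, with 213.9, 198.1 and 157.7 CPM in beta and 125.7, 118.4 and 131.0 CPM in non-beta cells (log2 0.56, standard error 0.12, adjusted p = 0.00668), and no alternative ended either call. In beta cells the label difference of 0.25 did not pass (standard error 0.10, adjusted p = 0.0898), with replicate 3 inside the range of the controls. Without that library it was 0.35 (adjusted p = 0.00727).

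Counted together, 2 of the 7 genes rose under the knockout label in beta cells and none fell, where 20.1% of 17525 genes tested were called. The median log2 fold change of the list was 0.25, and 0.01 over all genes. Without labelled knockout replicate 3 the number called was 4, namely Txnrd1, Txn1 and Txnl1 higher and Txnip lower, where 23.1% of all genes were called. With the replicate block it was 1, where 20.2% of all genes were called. In non-beta cells none of the 7 was called, and 0% of 18908 genes were called by edgeR, with 821 genes at an unadjusted p under 0.05 and 25 genes called by DESeq2. Between the control fractions 5 of 7 were called, 2 higher in beta cells (Txn2, Txnl1) and 3 lower (Txnrd3, Txn1, Txnip), where 53.5% of all genes were called. Between the labelled knockout fractions 6 of 7 were called, with Txnrd1 added on the higher side, where 42.6% of all genes were called. The label and fraction comparisons share libraries, so their values are set side by side and are not independent. In bulk RNA of a sorted fraction, a change in the mix of cells and a change in RNA per cell cannot be told apart.

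**Figure D5:**
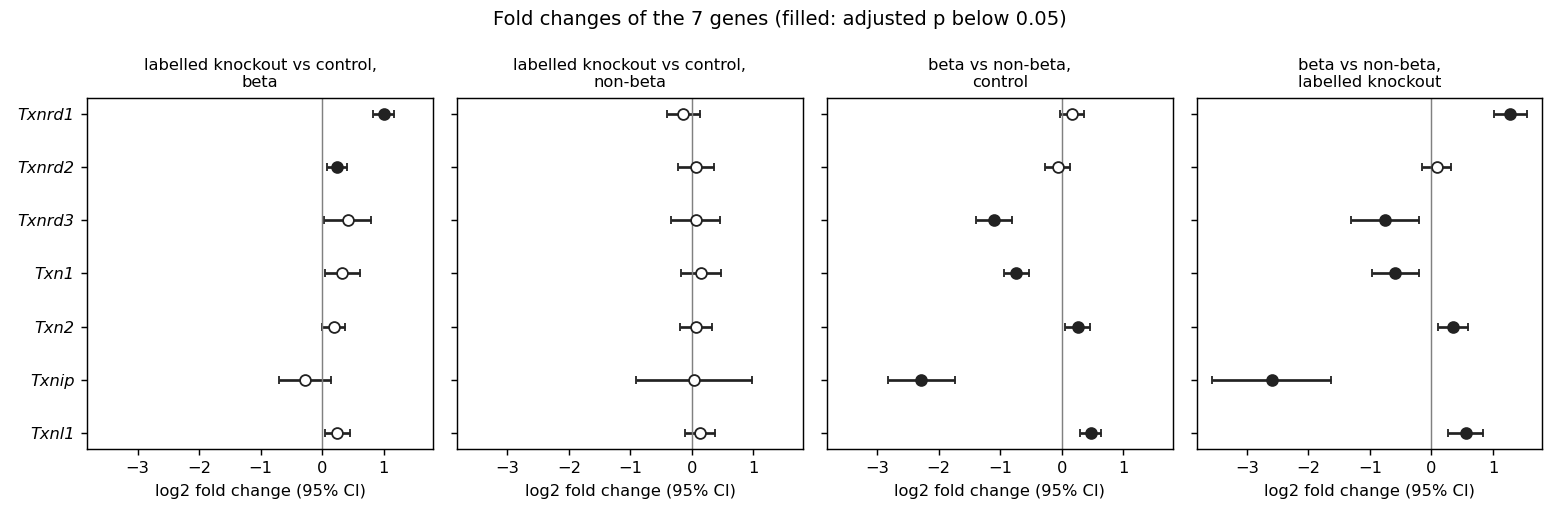
Log2 fold change with its 95% confidence interval (x axis) for the 7 genes in 4 comparisons, filled where the adjusted p is below 0.05. The knockout label gives filled points for Txnrd1 and Txnrd2 in beta cells and for no gene in non-beta cells, while Txnip lies farthest from 0 in both comparisons of fractions, at −2.28 and −2.60.

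The genes whose log2 CPM followed each other gene of the list most closely were found in the same way, over 13 libraries and among genes with a mean of at least 10 CPM. For Txnrd1 they were Me1 (r = 0.985), which encodes the NADPH-producing malic enzyme, Strada (0.974) and Srxn1 (0.972), the sulfiredoxin that repairs peroxiredoxins. Me1 was 46.5 ± 2.20 CPM (SD, n = 4) in control beta and 81.9 ± 2.36 CPM (SD, n = 3) in labelled knockout beta cells, and Srxn1 was 190.1 ± 14.6 and 591.3 ± 121 CPM. The motif TGACNNNGC, the core of the element that NRF2 is known to bind, occurred on either strand in 12.4% of all promoter windows, in 1 of the 3 windows of Txnrd1, in 1 of the 2 windows of Me1 and in the Srxn1 window. The window of Arrdc4 held it too, a gene with no call in beta cells under the label (edgeR adjusted p = 0.268). The motif was absent from the window of Strada and from those of Txnrd2, Txnrd3, Txn1, Txn2 and Txnip. The closest profiles were those of Bcl2l1 for Txnrd2 (0.924), Actr1a for Txnrd3 (0.965), Manbal for Txn1 (0.969), Mrps18b for Txn2 (0.972) and Ociad1 for Txnl1 (0.983). Within the list, Txn2 and Txnl1 had the closest profiles (r = 0.927), and Txnip ran against both (−0.887 and −0.911), as descriptions over libraries that share fractions.

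Genes that work beside the 7 were grouped by function, and their counts in beta cells under the knockout label stand against the 20.1% of all genes called. Of 12 enzymes that thioredoxin reduces, 2 rose and none fell, with a median log2 fold change of 0.17. They were the peroxide-removing Prdx1, at 260.8 to 302.7 CPM in controls and 374.0 to 542.9 CPM under the label (log2 0.75 ± 0.11 SE, adjusted p = 0.00112), and the mitochondrial and peroxisomal Prdx5 (0.35, adjusted p = 0.0248). The Prdx1 call held in all 14 alternatives, and that of Prdx5 was lost in 4 of 14. Msrb3, a methionine sulfoxide reductase, had 1.20 (adjusted p = 0.0877) at under 1 CPM in all beta libraries. Prdx1 was lowest in labelled knockout replicate 3, the library with the lowest Txn1 of that group.

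The parallel glutathione route gave 1 call among 5 genes. With the replicate block 2 of the 5 were higher and 1 lower, where 20.2% of all genes were called. Glutathione reductase, Gsr, was 127.9 to 159.0 CPM in control and 205.3 to 233.1 CPM in labelled knockout beta cells, a log2 rise of 0.61 (standard error 0.08, adjusted p = 0.00078). The glutaredoxins Glrx3 and Glrx2 had 0.29 and 0.20 (adjusted p = 0.0515 and 0.187). Glrx3 passed with the replicate block (0.28, adjusted p = 0.0417) and without labelled knockout replicate 3 (0.36, adjusted p = 0.0165). Among 14 tested genes with a thioredoxin fold, of 18 listed, 2 rose and 2 fell. The endoplasmic reticulum proteins Txndc5 and Txndc11 fell by 0.37 and 0.30 on the log2 scale (adjusted p = 0.00276 and 0.00845), and Txndc12, of the same compartment, rose by 0.38 (adjusted p = 0.0146). The median of this list was 0.01, the same as over all genes.

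Selenocysteine insertion, on which the 3 TGA codons above depend, was covered by 9 genes. Of these 2 rose, 1 fell and 6 did not pass, with a median log2 fold change of −0.05. Sepsecs, which makes the selenocysteine on its tRNA, was 68.8 to 86.6 CPM in control and 51.1 to 59.4 CPM in labelled knockout beta cells (log2 −0.44, standard error 0.09, adjusted p = 0.00881). Eefsec, the elongation factor for selenocysteine, and Secisbp2l, a relative of the protein that binds the insertion element, rose by 0.24 and 0.29 (adjusted p = 0.0351 and 0.0333). The Eefsec call was lost in 9 of 14 alternatives and that of Secisbp2l in 10 of 14. Both were lost with the replicate block (adjusted p = 0.0583 and 0.0648), and that of Secisbp2l also without labelled knockout replicate 3 (adjusted p = 0.0979). With the block 1 of the 9 genes was higher and 1 lower. Among 6 regulators of NRF2 signalling only Mafg, a small Maf partner of NRF2, was called (0.33, adjusted p = 0.00584), and Maff and Mafk had 0.56 and 0.19 (adjusted p = 0.0549 and 0.149). With the block Maff and Mafk passed too (adjusted p = 0.00913 and 0.0458). Of 5 tested signalling partners of thioredoxin, of 6 listed, Apex1, a DNA repair nuclease that thioredoxin reduces, rose by 0.44 (adjusted p = 0.011). Map3k5 (ASK1), the kinase that thioredoxin holds inactive, had −0.27 (adjusted p = 0.123). None of the 4 tested alpha-arrestin relatives of Txnip, of 5 listed, was called. In non-beta cells no gene of any list was called under the knockout label, and in the direct test between fractions none was either.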

How the data were processed

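RNA of sorted cells, 5 to 10 ng per library, was turned into cDNA with the SMARTseq Ultra Low Input workflow and Nextera libraries and read in pairs of 100 bases, with 50 M reads as the aim, per the labels' protocols. Per the submitters' processing notes the tools were FastQC, STAR and edgeR with the GRCm38.p6 build; the counting program, its strand setting and the annotation release are not given in the sources used here. The values used are raw gene counts as the authors deposited them, and 65 other columns of values per sample were not used. The authors' deposited tables of pairwise comparisons hold log2 fold changes and p-values with FDR, per the file headers, and were used only where named.

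Tests used edgeR 4.0.16, with limma 3.58.1, under R 4.3.3: filterByExpr, TMM scaling, the quasi-likelihood F test and Benjamini-Hochberg adjustment over all genes, called below 0.05, with only the libraries of each comparison. The label difference between fractions was an interaction contrast over 13 libraries. CPM used TMM sizes of all 13 libraries, and RPKM divided it by the deposited gene length. Likeness used log2 CPM with a prior count of 2. Gene positions and overlaps come from GENCODE vM21.

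The genes, 8 lists of 64 related genes, 39 markers and tests were chosen with earlier results of these data known. The 7 genes are described in full. From each list up to 3 genes with the smallest adjusted p in the beta label comparison are named, and for each of the 7 the 3 genes most alike were computed. Same-numbered control and labelled knockout beta libraries deviated together (r = 0.301 to 0.557 over 3 pairs). Differently numbered pairs had r of −0.503 to 0.425 (9 pairs), so the ranges overlapped and a pairing is not established. The blocked fit is given as an alternative beside some values, and it also changed calls of list genes that are not named. For genes outside the 7, the block and the removal of labelled knockout beta replicate 3 were alternatives chosen after seeing the data. Alternatives were RLE scaling, DESeq2 1.42.0, no filter, a stricter filter (1 CPM in 3 libraries), removal of 7 hormone genes, 1 fit of all libraries, the block and removal of each library.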

Additional observations from a re-analysis of the deposited data

Results flagged for a closer look

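The label difference of Txnrd1 was the 1 value that differed between the fractions by a test of the difference itself. The label difference of Txnrd1 was higher in beta than in non-beta cells by 1.15 on the log2 scale (edgeR interaction contrast over 13 libraries, adjusted p = 0.00209). Txnrd1 was higher in 3 of 3 labelled knockout beta libraries than in every control beta library, and lower in 3 of 3 labelled knockout non-beta libraries than in every control non-beta library, where the difference did not pass. The call held in all 21 alternatives run.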

How the results depend on the processing

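Txnrd1 kept its calls in every alternative. In beta cells 3525 genes were called under the label, 1671 with all 13 libraries in 1 fit and 1990 to 4117 with a library left out. Of the 7 genes 2 were called, 1 with the hormone genes taken out, with all libraries in 1 fit or with the replicate block, and 1 to 4 with a library left out. In non-beta cells edgeR called 0 genes, 1 without a filter, 3 with all libraries in 1 fit, 12 with the replicate block and 25 with DESeq2. There the log2 fold change of Txnrd3 was −0.0407 with the block. With a library left out it was −0.0426 to 0.20, for Txnrd2 −0.0027 to 0.10, for Txn2 −0.0015 to 0.13 and for Txnip −0.25 to 0.37. In beta cells Arrdc1 was −0.0813 without labelled knockout replicate 3, a setting added after seeing the data. The interaction called 185 genes, 519 with DESeq2, 50 with the block, 90 without control replicate 4 and 62 to 285 with a library left out. Between labelled knockout fractions 6 of 7 genes were called, 3 to 6 with a library left out. The cause of these shifts was not tested. Same-numbered libraries had r of −0.125 to 0.486 in non-beta cells under the label. Between control fractions r was 0.0507 to 0.309, and between labelled knockout fractions 0.0181 to 0.166. The block ended the Txn2 call between control fractions (0.22, adjusted p = 0.0817). Leaving control replicate 4 or labelled knockout replicate 3 out of both fractions equals the removal of 1 library within a fraction, and was run for the other comparisons only. Removal of the hormone genes moved 25 of 28 group levels by more than 1 SD and the deposited totals moved 7. No scaling moved the median of all genes by over 0.1. The limits are 3 or 4 libraries a group and gene-level counts without exons or strand.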

Other observations

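Genes within 1 Mb of Txnrd1 were looked at after its rise had been seen, and the genes named here were chosen after their values were seen. Of 25 such genes tested in beta cells, 4 were higher and 5 lower under the knockout label, or 36% against 20.1% of all genes. With the replicate block 3 of 24 were higher and 4 lower, where 20.2% of all genes were called. Without labelled knockout replicate 3 these were 3 and 5 of 24, where 23.1% of all genes were called. The lowest adjusted p belonged to Tdg, the thymine DNA glycosylase, whose gene lies before Txnrd1 at a distance of −183.2 kb. In beta cells Tdg was 19.4, 16.4, 21.9 and 23.2 CPM in control replicates 1 to 4 and 5.97, 7.17 and 6.29 CPM under the knockout label, a fall by 1.64 on the log2 scale (adjusted p = 3.12e-05). In non-beta cells it was 22.1, 27.9 and 27.2 CPM in control replicates 2 to 4 and 9.51, 6.72 and 7.60 CPM under the label. The log2 difference there was −1.68 with an unadjusted p of 1.21e-05, and the adjusted p of 0.23 did not pass. It passed in 4 of 13 alternatives, with adjusted p from 1.09e-11 to 0.717 over the 13. The ranges did not overlap in either fraction, and the difference between the fractions was 0.05 (adjusted p = 0.968). Gm38560, a noncoding gene transcribed away from a start site inside Txnrd1, shares no exon base with it. It was 2.69 to 3.57 CPM in control and 1.32 to 2.15 CPM in labelled knockout beta cells (log2 −0.81, adjusted p = 0.0229), and −0.37 in non-beta cells (adjusted p = 0.999).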
